A study of Arabidopsis thaliana with 119 samples.

Results

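The 52 genes described here encode proteins of the cytosolic ribosome of Arabidopsis thaliana, 20 of the large and 32 of the small subunit, and were taken by gene identifier from a table of 32833 genes. They belong to 30 protein families, 17 of which are represented by 2 or more gene copies (paralogues) and 13 by a single gene. All 52 passed the filter on low counts, which kept 20025 genes. RNA was sequenced from rosettes of 5 natural accessions, namely Tsu-0, Sha, Cvi-0, Bur-0 and Col-0, for which the labels name no transgene or induced mutation, grown in short days and sampled 31 days after sowing, after 23 days on a robot that waters each pot. The full supply of the control (W+N+) came to 160.45 ± 7.96 ml of nutrient solution at 5 mM nitrate, and that of drought (W-N+) to 50.85 ± 4.67 ml at the same 5 mM. The smaller volume of drought thus also brought less nitrate in total, and the 2 cannot be told apart in the drought results. Nitrogen deficiency (W+N-) meant 161.93 ± 11.07 ml at 0.5 mM nitrate, and the combined stress (W-N-) meant 50.7 ± 4.1 ml at 1.5 mM, so the last 2 groups differed in nitrate concentration as well as in water.

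The 20 groups of accession and treatment had 6 libraries apiece (5 for the Bur-0 control), split between 2 experiment codes of the labels, P3ID33 and P3ID34. Library totals lay between 9698708 and 110420763 counts (median 17998283). Whether replicates are separate plants is not stated in the labels, and p-values therefore reflect only the spread between libraries, which may be technical. Transcripts of 5 leaf mesophyll markers summed to a median of 58069 CPM (counts scaled to the library total) in the control libraries, and 4 root markers summed to at most 1.95 CPM in any library; the labels give the tissue as leaf. The 4 libraries farthest from their groups were the controls Cvi-0 c and Col-0 f, the nitrogen-deficient Tsu-0 d and the combined-stress Bur-0 c, and results that changed without them are named below.

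Ribosomal proteins assemble with ribosomal RNA in the nucleolus before the subunits are exported to the cytosol, and the small subunit decodes the mRNA while the large subunit forms peptide bonds. In plants each ribosomal protein is encoded by a small gene family, so ribosomes can be built from different copies. Ribosome production is costly in nitrogen and is controlled by the TOR kinase, which responds to nutrients. Copy letters follow the usual Arabidopsis names, since the RefSeq annotation gives many of the genes a family name alone.

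The genes were among the highly expressed ones of the rosette, with a few weakly expressed copies. Per kilobase of transcript, the control level had a median of 237 CPM over the 52 genes, against 7.22 CPM over the genes tested with a known length. Among the highest levels were those of RPL3A, a protein of the peptidyl transferase region, at 538 ± 76.5 CPM per kilobase (SD, n = 29), and of RPL10A, a large subunit protein, at 534 ± 139 CPM per kilobase, which differed by less than 1 SD. Low copies were RPSAB with 7.92 ± 1.78, RPS9C with 6.03 ± 3.85 and RPP0A with 2.67 ± 2.01 CPM per kilobase (SD, n = 29 each). Each of those 3 has a sister copy in the list, and these sisters, RPSAA, RPS9B and RPP0B, were expressed at a far higher level.

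Together the 52 genes took 1.28 ± 0.182% of library counts in the control libraries (SD, n = 29), 1.13 ± 0.119% in drought, 0.904 ± 0.157% in nitrogen deficiency and 0.897 ± 0.115% in combined stress (SD, n = 30 each). In nitrogen deficiency every library lay below every control of its accession in Col-0, Bur-0 and Tsu-0, and 5 of 6 libraries did in both Cvi-0 and Sha. In combined stress the groups did not overlap in Col-0, Bur-0 and Sha, and 5 of 6 Tsu-0 and 4 of 6 Cvi-0 libraries lay below all controls. Drought overlapped the control in all 5 accessions, with 5 of 6 Bur-0 libraries, 4 of 6 Col-0, 3 of 6 Tsu-0 and no Cvi-0 or Sha library below the lowest control.

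**Figure D1:**
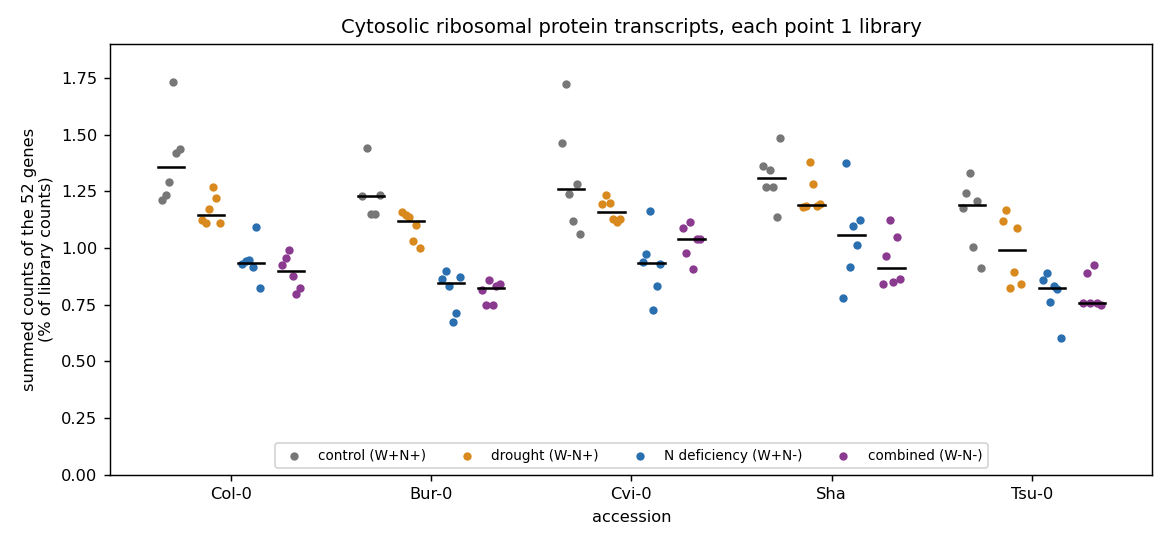
Summed counts of the 52 cytosolic ribosomal protein genes as a percentage of library counts (vertical axis) for the 4 treatments within each accession (horizontal axis); each point is 1 library and black lines are group medians. The medians of nitrogen deficiency and combined stress sit lowest in each accession, and drought overlaps the control in all 5 accessions.

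Averaged over the accessions, nitrogen deficiency lowered 50 of the 52 genes, drought 43 and combined stress 50, by edgeR's quasi-likelihood test with a Benjamini-Hochberg adjusted p below 0.05 over all 20025 genes. Of all genes tested, 31.4% were lower in nitrogen deficiency, 13.1% in drought and 26.6% in combined stress. The median log2 fold change of the 52 genes was -0.69 in nitrogen deficiency, -0.23 in drought and -0.66 in combined stress, beside medians of 0.05, 0.00 and 0.03 over all genes. Both subunits moved alike, with medians of -0.67 for the large and -0.70 for the small subunit in nitrogen deficiency and -0.23 for each in drought. A single gene, RPS9C, rose in nitrogen deficiency, where 36.6% of all genes did, and none of the 52 rose in the other stresses. Over all genes, 4737 were called in drought, 2617 of them lower and the rest higher. In combined stress 11468 were called, 5335 of them lower and the rest higher. Within each experiment code alone the medians were -0.70 and -0.68 in nitrogen deficiency and -0.62 and -0.68 in combined stress for P3ID33 and P3ID34. For drought they were -0.19 and -0.23, with 10 and 21 genes lower.

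**Figure D2:**
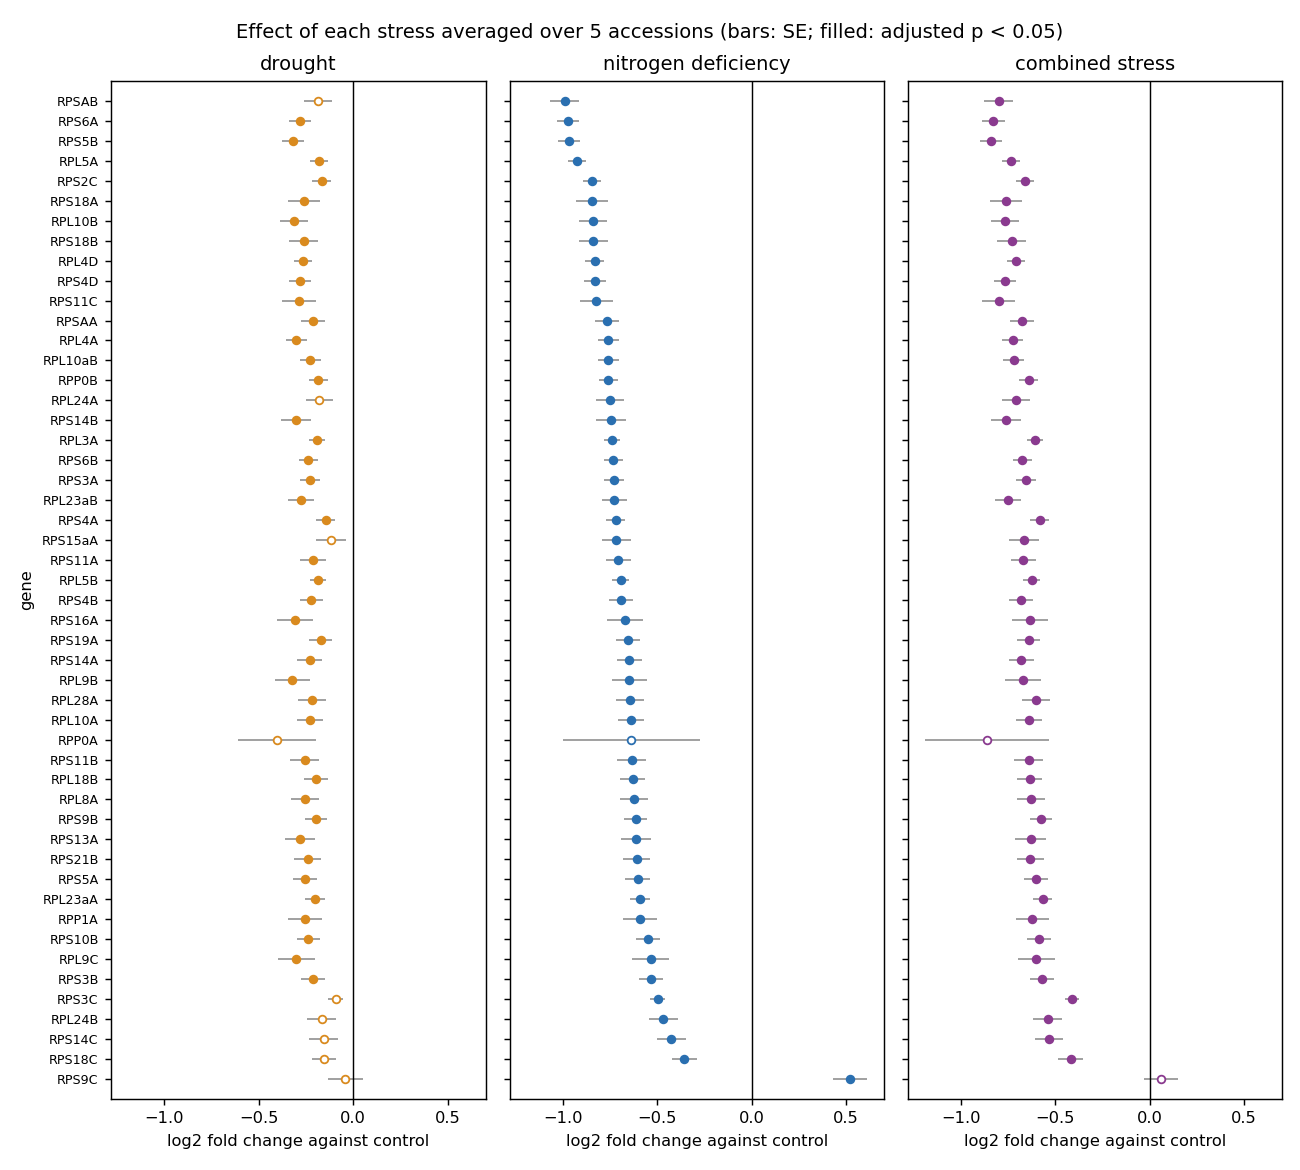
Log2 fold change against the control, averaged over 5 accessions, for 50 of the 52 genes (rows, ordered by nitrogen deficiency) in the 3 stresses; bars are standard errors and filled points have an adjusted p below 0.05. In nitrogen deficiency RPS9C alone lies to the right of 0, at 0.52.

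RPS6A and RPS5B were among the genes that fell most in nitrogen deficiency. RPS6A encodes a copy of S6, the small subunit protein phosphorylated by S6 kinase downstream of TOR. It measured 290, 388 and 670 CPM (lowest, median, highest) in the control, 245, 324 and 417 CPM in drought, 91.8, 202 and 369 CPM in nitrogen deficiency and 156, 226 and 292 CPM in combined stress. Its nitrogen-deficient libraries lay below every control in 4 of 5 accessions, and it fell by 0.97 on the log2 scale (SE 0.060, adjusted p = 5.75e-29). RPS5B (AT2G37270) measured 124, 168 and 271 CPM in the control, 97.3, 139 and 178 CPM in drought, 44.1, 83.7 and 159 CPM in nitrogen deficiency and 66.0, 101 and 132 CPM in combined stress. Under combined stress it lay below every control in all 5 accessions, with a log2 fold change of -0.84 ± 0.058 (adjusted p = 7.91e-25). RPS5A and RPS5B are copies of the same protein, and loss of RPS5A is known to arrest embryos.

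RPSAB (AT3G04770), the minor copy of the small subunit protein SA, fell strongly in nitrogen deficiency. Its control levels were 5.56, 10.04 and 14.1 CPM (lowest, median, highest), with 6.26, 8.87 and 13.3 CPM in drought, 1.46, 4.76 and 9.98 CPM in nitrogen deficiency and 3.82, 5.52 and 9.70 CPM in combined stress. Drought and control overlapped in every accession, and RPSAB did not pass the drought test (log2 fold change -0.18 ± 0.075, adjusted p = 0.0602). In nitrogen deficiency the log2 fold change was -0.99 ± 0.077 (adjusted p = 3.8e-22). RPL5A and RPS2C were the 2 genes whose nitrogen-deficient libraries lay below every control in all 5 accessions, as did 1.95% of all genes tested. In combined stress RPL5A and RPS5B did so, beside 0.534% of all genes. RPL5A (AT3G25520), a large subunit protein that binds 5S ribosomal RNA, had a log2 fold change of -0.92 ± 0.048 (adjusted p = 4.72e-34).

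At the other end, RPS18C (AT4G09800) fell least among the genes that fell in nitrogen deficiency. It measured 119.1, 150.4 and 247 CPM (lowest, median, highest) in the control, 84.6, 141 and 199.9 CPM in drought, 77.1, 118 and 217 CPM in nitrogen deficiency and 80.9, 117 and 169 CPM in combined stress. Nitrogen deficiency overlapped the control in all 5 accessions, with a log2 fold change of -0.36 ± 0.066 (adjusted p = 1.03e-06). RPS14C (AT3G52580), a copy of the small subunit protein S14, measured 36.9, 52.8 and 135 CPM in the control, 35.6, 50.3 and 66.4 CPM in drought, 29.0, 39.0 and 73.9 CPM in nitrogen deficiency and 29.2, 39.1 and 53.0 CPM in combined stress. Its libraries lay below every control in 1 of 5 accessions in nitrogen deficiency, where the log2 fold change was -0.43 ± 0.076 (adjusted p = 4.63e-07). RPS3C, a copy of a protein at the mRNA entry site, measured 98.4, 143 and 241 CPM in the control, 89.3, 142 and 164 CPM in drought, 60.6, 104 and 139 CPM in nitrogen deficiency and 66.9, 108 and 141 CPM in combined stress. RPS3C fell by 0.50 in nitrogen deficiency and by 0.41 in combined stress on the log2 scale (SE 0.039 each) and had -0.09 ± 0.039 in drought (adjusted p = 0.0685).

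The 9 genes that did not pass the drought test were RPS15aA, RPL24A, RPP0A, RPSAB, RPS14C, RPL24B, RPS18C, RPS3C and RPS9C, all with negative log2 fold changes, although that of RPS9C turned positive under 3 alternatives. RPS15aA, a small subunit protein, measured 145, 183 and 468 CPM in the control and 125, 182 and 294 CPM in drought, with a log2 fold change of -0.12 ± 0.078 (adjusted p = 0.296). RPL9B had a drought log2 fold change of -0.32 ± 0.092 (adjusted p = 0.00543), from 59.6, 92.6 and 229 CPM in the control to 58.4, 73.4 and 129 CPM in drought. RPL9B and RPL9C encode identical proteins and share 75.2% of the 75-base stretches of their coding sequence, so their separate counts are uncertain.

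Other genes of the translation machinery moved the same way. Of 117 other cytosolic ribosomal protein genes tested, 114 fell in nitrogen deficiency, 88 in drought and 116 in combined stress, with medians of -0.67, -0.24 and -0.66 on the log2 scale and no gene higher. RPL3B, a second L3 copy, led them with -1.05 in nitrogen deficiency and -0.53 in drought. Of 33 ribosome biogenesis factors 30 fell in nitrogen deficiency and 2 rose (median -0.59), and 24 fell in drought; FIB2, a fibrillarin that methylates ribosomal RNA, had -0.49 in drought and -1.03 in combined stress. Among 21 translation initiation and elongation factors 18 fell in nitrogen deficiency and 18 in drought, with PAB8, a poly(A)-binding protein, at -0.96 in nitrogen deficiency. Of 24 plastid ribosomal protein genes tested all 24 fell in nitrogen deficiency (median -0.77), and 6 did in drought (median -0.11). Of 8 TOR pathway genes 3 fell and 4 rose in nitrogen deficiency, and S6K2, which encodes an S6 kinase, rose by 0.86 on the log2 scale.

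Markers of other cells moved with nitrogen deficiency as well. In bulk rosettes, fewer cells of a type and less RNA per cell cannot be told apart. All 13 dividing cell markers fell in nitrogen deficiency and 9 in combined stress, while none fell and TPX2 rose in drought. Their summed level ranged from 50.5 to 128 CPM in the control, 65.9 to 109 in drought, 53.9 to 88.3 in nitrogen deficiency and 54.2 to 96.7 in combined stress. All 5 mesophyll markers fell in nitrogen deficiency and in combined stress, from a summed 45439 to 82573 CPM in the control to 27418 to 59562 CPM in nitrogen deficiency. Of 4 shoot meristem markers 2 could be tested, STM and KNAT1, and both rose in nitrogen deficiency, with the summed level of the 4 going from 0.0671 to 15.4 CPM in the control to 2.51 to 13.9 CPM. WOX5, the 1 root marker tested, fell in nitrogen deficiency by 1.16 on the log2 scale, and the 4 root markers summed to 0.0688 to 1.95 CPM in the control and 0.0428 to 0.668 CPM in nitrogen deficiency. No flower marker of 3 tested passed the test in nitrogen deficiency, and the summed level of all 8 ran from 0.427 to 5.20 CPM in the control and from 0.292 to 12.2 CPM in nitrogen deficiency. The part of these cell types in the fall of the ribosomal protein genes was not tested.

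The combined stress did not add up the 2 single stresses. For 32 of the 52 genes combined stress was higher than the sum of the drought and nitrogen effects, where 15.3% of all genes were, and RPS9C was lower than that sum. The 32 became 19 with library totals, 12 and 16 within P3ID33 and P3ID34, 20 without replicate letter f and 47 with the length trend as a covariate. The median departure of the 52 genes was 0.26 on the log2 scale and -0.01 over all genes. Against drought alone, 50 genes were lower in combined stress (20.9% of all genes were), with a median of -0.44. Against nitrogen deficiency alone 8 were higher, where 19.6% of all genes were, namely RPL3A, RPS4A, RPS2C, RPSAB, RPP0B, RPL5A, RPS6A and RPL4D, and the median over the 52 was 0.03. RPS9C was lower, with a log2 difference of -0.46 (SE 0.088, adjusted p = 5.86e-06). The count of 8 became 2 with library totals and without replicate letter a, 1 and 2 within P3ID33 and P3ID34 and 22 with the length covariate. The largest of the positive differences was 0.19, reached by RPL5A (SE 0.048, adjusted p = 0.000663) and RPSAB (SE 0.078, adjusted p = 0.0424). RPL5A measured 406, 532 and 722 CPM in the control, 313, 479 and 598 CPM in drought, 134, 280 and 456 CPM in nitrogen deficiency and 249, 325 and 401 CPM in combined stress. The nitrate concentration differed between the nitrogen-deficient and combined groups, so the effect of water within these comparisons cannot be told apart from that of nitrate strength.

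Nitrogen deficiency lowered 51 genes in Col-0 (22.3% of all genes lower), 51 in Bur-0 (19.7%), 50 in Cvi-0 (20.8%), 36 in Sha (17.7%) and 45 in Tsu-0 (22.9%), with median log2 fold changes of -0.81, -0.78, -0.66, -0.45 and -0.70. Combined stress lowered 51 in Col-0 (16.9% of all genes lower), 48 in Bur-0 (14.6%), 40 in Cvi-0 (10.2%), 49 in Sha (9.03%) and 49 in Tsu-0 (18.4%), with medians of -0.91, -0.71, -0.47, -0.57 and -0.66. Drought lowered 15 genes in Col-0, where 4.2% of all genes were lower, and 6 in Tsu-0, where 2.85% were. No gene was called in Bur-0, Cvi-0 or Sha by edgeR, DESeq2 or limma voom in drought, where 1.56%, 0.964% and 0.719% of all genes were lower. At an unadjusted p under 0.05 edgeR gave 5, 21 and 0 genes there, DESeq2 5, 19 and 0, and limma voom 5, 4 and 0. The share of all genes at this unadjusted threshold is not given, so whether these counts exceed it is not shown. The drought medians were -0.40 in Col-0, -0.20 in Bur-0, -0.26 in Cvi-0, -0.08 in Sha and -0.22 in Tsu-0. The 6 in Tsu-0 became 0 within each code and without replicate letter a, 1 without letter b or e, 11 with library totals and 41 with the length trend as a covariate. Without Col-0 W+N+ f, the control library with the highest summed level, and the other 3 far libraries, 1 gene was lower in Col-0 drought, as also under limma voom.

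**Figure D3:**
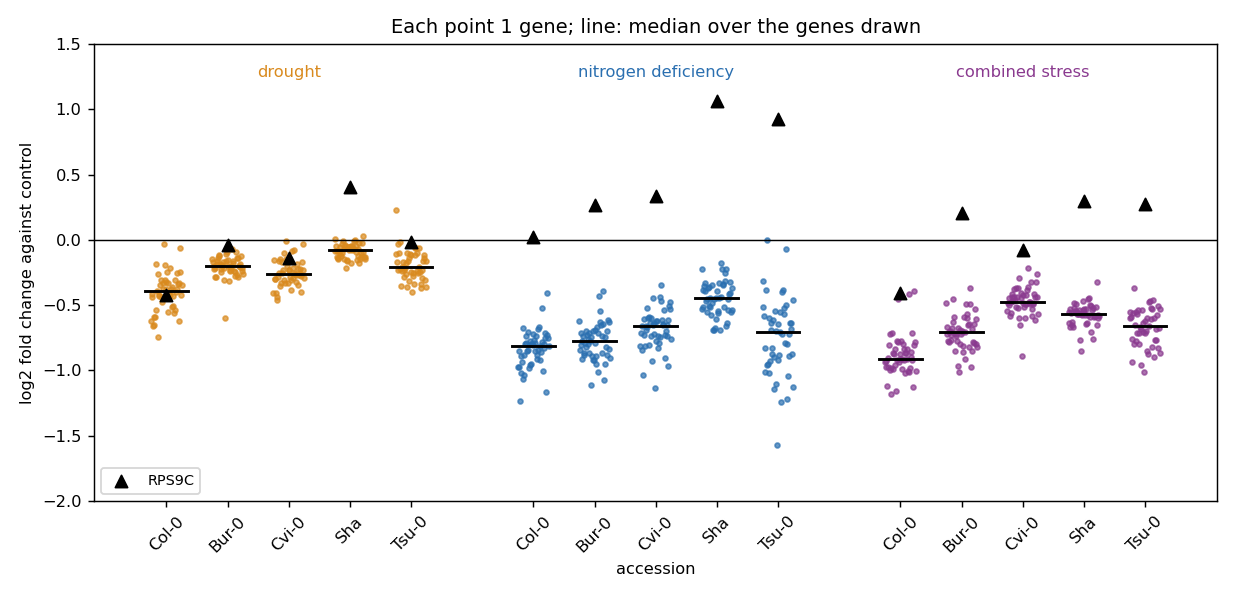
Log2 fold change against the control (vertical axis) within each accession for the 3 stresses; each point is 1 of 50 genes, lines are medians of the genes drawn, and triangles mark RPS9C. RPP0A in Tsu-0, with counts at or near 0, is not drawn; RPS9C lies above the other genes in nitrogen deficiency in all 5 accessions.

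Tests of the accession-by-stress interaction gave counts that depended on the fit. For drought none of the 52 was called by edgeR (0.619% of all genes were), with 1 at an unadjusted p under 0.05, for which no share of all genes is given. For nitrogen deficiency 4 were called, where 16.1% of all genes were, and for combined stress 2, where 13.5% were. With the length trend as a covariate the counts were 21 and 25, and within P3ID33 alone 0 and 23. The shares of all genes called in those other fits are not given, so these counts cannot be set against them. Those called in nitrogen deficiency included RPSAB (adjusted p = 0.0135), RPS9C (0.0148) and RPL5A (0.0336). RPSAB ranged from -0.60 ± 0.165 in Sha to -1.57 ± 0.177 in Tsu-0, and RPL5A from -0.69 ± 0.107 in Sha to -1.24 ± 0.108 in Tsu-0. Those called in combined stress included RPL5B (adjusted p = 0.0125), from -0.26 ± 0.097 in Cvi-0 to -0.80 ± 0.098 in Col-0. RPL5B is the sister copy of RPL5A. Over 18 fits the nitrogen interaction was called 14 times for RPSAB and RPS9C and 10 times for RPL5A, and the combined one 14 times for RPL5B.

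Copies of the same protein were compared by the log2 ratio of their counts within each library, which does not depend on library scaling. The 27 pairs in 3 stresses gave 81 comparisons, each tested by 100000 relabellings of the treatment within accession and code (two-sided permutation test, adjusted over the 81). The ratio changed in 22 pairs in nitrogen deficiency, 22 in combined stress and 14 in drought. Median absolute changes were 0.20, 0.14 and 0.06 on the log2 scale, so most shifts between copies were small beside the common fall. Except for RPL9B and RPL9C, no pair shared a 75-base stretch of coding sequence.

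RPS9B and RPS9C parted most. The ratio of RPS9B (AT5G15200), the major copy of the small subunit protein S9, to RPS9C (AT5G39850) changed by -1.10 in nitrogen deficiency (95% interval -1.26 to -0.95, permutation p = 1e-05, the smallest the relabellings can give), by -0.63 in combined stress (-0.75 to -0.50) and by -0.16 in drought (-0.26 to -0.05, adjusted permutation p = 0.0107). It fell in all 5 accessions in the first 2 stresses and in 4 of 5 in drought, and within code P3ID33 and P3ID34 the nitrogen value was -0.96 and -1.24. Scaled by transcript length, RPS9C made up 1.43 ± 0.0744% of S9 transcripts in Col-0 controls and 2.37 ± 0.415% in Col-0 nitrogen deficiency (SD, n = 6 each). In Bur-0 the share went from 0.750 ± 0.179% (n = 5) to 1.49 ± 0.192% (n = 6), and in Cvi-0 from 2.05 ± 0.212% to 3.89 ± 0.298% (n = 6 each). In Tsu-0 it went from 0.997 ± 0.1195% to 2.93 ± 1.13% and in Sha from 0.330 ± 0.0844% to 0.901 ± 0.344% (n = 6 each). The libraries of the 2 groups did not overlap in Col-0, Bur-0, Cvi-0 and Tsu-0, and overlapped in Sha.

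In counts, RPS9C ran from 1.15 to 15.7 CPM with a median of 5.39 in the control and from 1.41 to 21.9 CPM with a median of 7.79 in nitrogen deficiency, while the drought range was 1.56 to 11.7 CPM (median 4.82) and that of combined stress 1.50 to 14.2 CPM (median 5.75). The ranges overlap, also within each accession: in none did the nitrogen-deficient libraries all exceed the controls. RPS9C rose by 0.52 ± 0.090 on the log2 scale when averaged over accessions (adjusted p = 2.23e-07), with 0.34 and 0.69 in P3ID33 and P3ID34 alone. It rose in Sha by 1.06 ± 0.224 (adjusted p = 5.46e-05) and in Tsu-0 by 0.92 ± 0.195 (adjusted p = 3.17e-05), and had 0.34 ± 0.185 in Cvi-0, 0.26 ± 0.209 in Bur-0 and 0.02 ± 0.191 in Col-0, none of which passed. In Tsu-0 nitrogen deficiency RPS9C had 19.6 CPM in the far library d and 5.57 to 9.98 CPM in the others. In drought it had -0.04 ± 0.093 (adjusted p = 0.81) and in combined stress 0.06 ± 0.092 (adjusted p = 0.614). RPS9B in contrast ran from 340 to 843 CPM with a median of 483 in the control, 327 to 567 (422) in drought, 217 to 528 (318) in nitrogen deficiency and 248 to 414 (331) in combined stress, and fell in nitrogen deficiency by 0.61 ± 0.059 on the log2 scale (adjusted p = 4.86e-17).

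**Figure D4:**
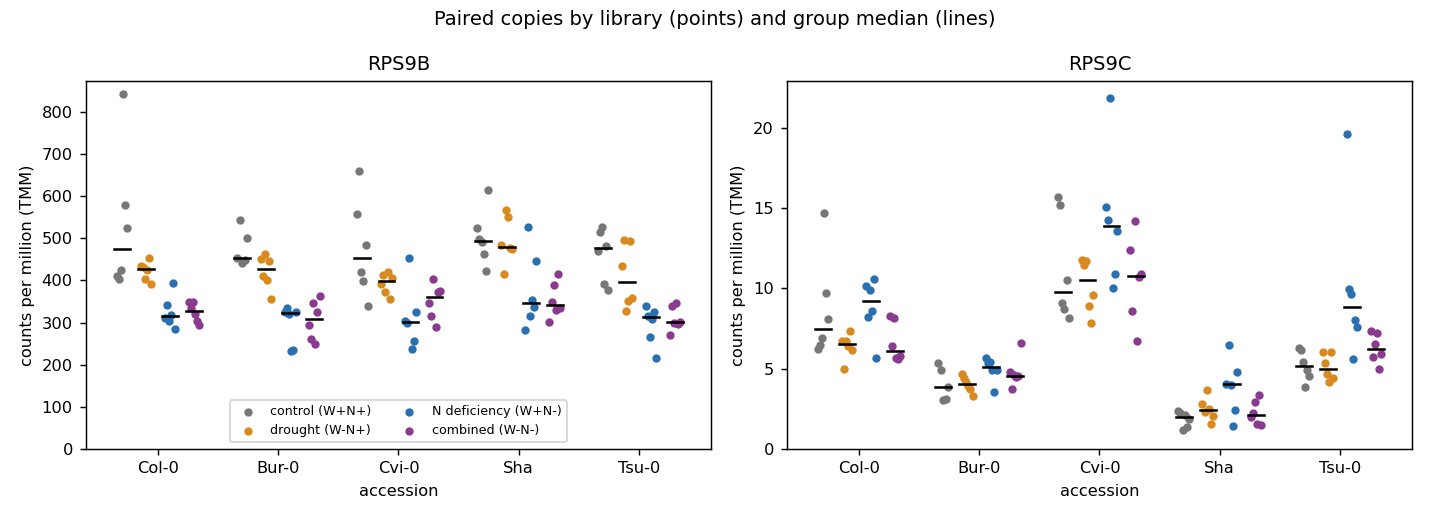
TMM-scaled CPM (vertical axes, from 0) of RPS9B and RPS9C in the 4 treatments within each accession; points are libraries and lines group medians. RPS9C is the copy whose median in nitrogen deficiency lies above the control in each accession.

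In the S18 family, whose 3 genes encode identical proteins, RPS18C gained on both sisters. The ratio to RPS18C changed by -0.48 for RPS18B (95% interval -0.57 to -0.38) and by -0.47 for RPS18A (-0.56 to -0.38) in nitrogen deficiency, with the same sign in all 5 accessions. In combined stress the values were -0.30 and -0.32, and in drought -0.09 (adjusted permutation p = 0.0096) and -0.09 (adjusted permutation p = 0.0912). RPS18C made up 36.3 ± 2.81% of S18 transcripts in the control (SD, n = 29), 37.6 ± 2.41% in drought, 44.1 ± 4.38% in nitrogen deficiency and 41.3 ± 2.33% in combined stress (n = 30 each). The ratio of RPS18A to RPS18B did not pass the test, with an average change of 0.00 in nitrogen deficiency (95% interval -0.06 to 0.07), 0.01 in drought (-0.08 to 0.09) and -0.02 in combined stress (-0.10 to 0.06). In nitrogen deficiency single accessions ran from -0.15 in Col-0 to 0.15 in Tsu-0. RPS18A ran from 103 to 371 CPM with a median of 129 in the control and 46.2 to 143 (76.5) in nitrogen deficiency, RPS18B from 84.0 to 325 (116) and 31.2 to 140 (65.0).

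RPS5A gained on RPS5B on average, by 0.38 in nitrogen deficiency (95% interval 0.30 to 0.46), 0.25 in combined stress (0.20 to 0.31) and 0.08 in drought (0.03 to 0.13). The sign was the same in all 5 accessions in each stress, although the Col-0 drought value was only 0.002. Single accessions were not tested. RPS5A ran from 223 to 635 CPM with a median of 313 in the control, 192 to 408 (259) in drought, 139.9 to 372 (189) in nitrogen deficiency and 161 to 256 (207) in combined stress, and its share of S5 transcripts was 65.5 ± 2.14% in the control and 71.0 ± 3.34% in nitrogen deficiency (SD, n = 29 and 30). RPS14C gained on RPS14B, the ratio of RPS14B to RPS14C changing by -0.33 in nitrogen deficiency (-0.40 to -0.26), -0.24 in combined stress (-0.30 to -0.18) and -0.15 in drought (-0.21 to -0.08), with the same sign in all 5 accessions. RPS14B ran from 201 to 666 CPM (median 272) in the control, 159.7 to 366 (241) in drought, 104 to 338 (167) in nitrogen deficiency and 115 to 254 (172) in combined stress. Of the other pairs, RPL24A to RPL24B changed by -0.28, RPS6A to RPS6B by -0.25, RPSAA to RPSAB by 0.26 and RPL5A to RPL5B by -0.24 in nitrogen deficiency. RPS11A to RPS11B did not pass the test in any stress, with 95% intervals of -0.15 to 0.05 in nitrogen deficiency, -0.11 to 0.08 in combined stress and -0.03 to 0.14 in drought.

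**Figure D5:**
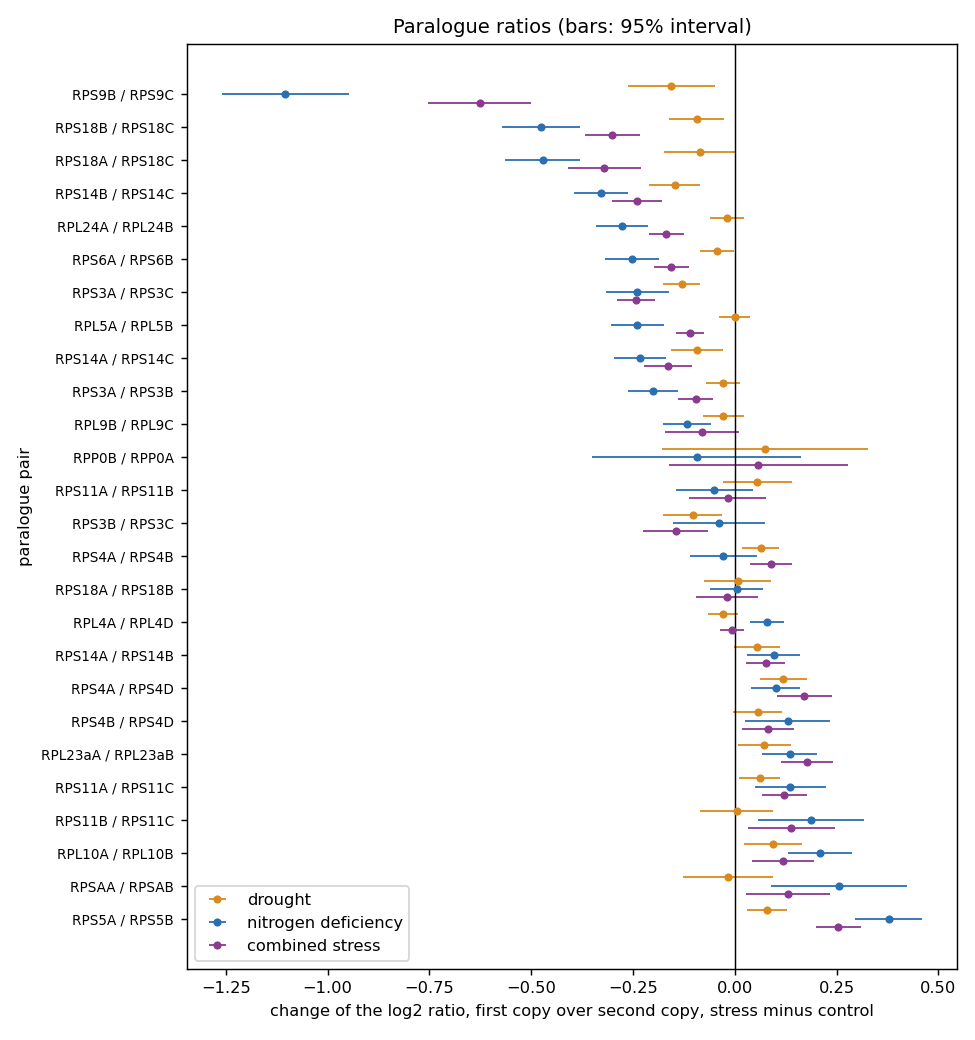
Change of the log2 ratio of the first to the second copy, stress minus control (horizontal axis), for the paralogue pairs (rows) in the 3 stresses; points are averages over 5 accessions and bars 95% intervals. RPS9B to RPS9C lies farthest to the left at -1.10 in nitrogen deficiency, and RPS5A to RPS5B lies to the right at 0.38.

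Promoters are shown for copies of 4 families whose ratio changed in nitrogen deficiency, S9, S18, S5 and S14. For S18 these are RPS18C and 1 of its 2 sisters, and for S14 they are RPS14B and RPS14C, without RPS14A. Each line gives the 150 bases before the gene start in the RefSeq annotation of TAIR10.1, on the gene's strand, with 2 motifs known from promoters of plant ribosomal protein genes in capitals: the telo-box core (AAACCCTA or its complement TAGGGTTT) and site II (TGGGCC or TGGGCT, or GGCCCA or AGCCCA), searched on both strands; the 2 motifs can overlap. The stretches lie at chr5:4936430-4936579 (minus strand), chr5:15949760-15949909 (plus), chr3:3779546-3779695 (minus), chr2:15649472-15649621 (minus), chr1:8067714-8067863 (plus), chr4:6173562-6173711 (plus), chr3:3624962-3625111 (minus) and chr3:19503003-19503152 (plus).
RPS9B: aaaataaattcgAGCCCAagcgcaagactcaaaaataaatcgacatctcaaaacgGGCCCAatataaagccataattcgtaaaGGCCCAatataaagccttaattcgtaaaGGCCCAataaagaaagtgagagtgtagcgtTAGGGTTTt
RPS9C: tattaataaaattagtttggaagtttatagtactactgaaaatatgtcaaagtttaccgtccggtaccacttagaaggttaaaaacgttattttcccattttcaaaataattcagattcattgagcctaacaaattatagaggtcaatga
RPS5A: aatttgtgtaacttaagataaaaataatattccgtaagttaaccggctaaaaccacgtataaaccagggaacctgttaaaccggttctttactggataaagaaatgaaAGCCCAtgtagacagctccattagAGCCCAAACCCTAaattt
RPS5B: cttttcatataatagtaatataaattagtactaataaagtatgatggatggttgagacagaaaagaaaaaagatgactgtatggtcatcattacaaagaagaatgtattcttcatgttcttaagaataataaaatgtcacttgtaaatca
RPS18A: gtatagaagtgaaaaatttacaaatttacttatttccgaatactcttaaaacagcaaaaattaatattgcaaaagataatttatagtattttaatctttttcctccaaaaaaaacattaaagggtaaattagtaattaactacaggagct
RPS18C: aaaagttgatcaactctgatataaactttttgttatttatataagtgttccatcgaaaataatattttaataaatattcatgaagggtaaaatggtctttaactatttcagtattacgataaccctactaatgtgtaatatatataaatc
RPS14B: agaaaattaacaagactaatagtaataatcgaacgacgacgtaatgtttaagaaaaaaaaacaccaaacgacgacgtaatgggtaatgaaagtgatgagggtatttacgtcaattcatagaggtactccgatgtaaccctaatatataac
RPS14C: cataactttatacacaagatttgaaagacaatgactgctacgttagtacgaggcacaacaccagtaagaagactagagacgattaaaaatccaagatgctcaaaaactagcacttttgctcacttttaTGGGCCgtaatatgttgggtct

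RPS9B has 1 telo-box core and 4 site II matches in this stretch and RPS9C none of either. RPS5A has 1 telo-box core and 2 site II matches where RPS5B has none. RPS18A, RPS18C and RPS14B have no match, and RPS14C has 1 site II match. The copy without a match in this stretch was the one that rose in nitrogen deficiency for S9. For S5, and between the 2 S14 copies shown, it was the one that fell more. The S18 copies shown parted with no match in either. In the longer window described next RPS9C holds site II, RPS18A and RPS18C hold the telo-box core, and RPS18B holds both motifs. RPS14A, the S14 copy not shown, also holds both motifs there. Its ratio to RPS14C changed by -0.23 in nitrogen deficiency, with the same sign in all 5 accessions, so RPS14A too fell more than RPS14C. In 300 bases, from 250 before to 50 after the start, 25 of the 52 promoters (48.1%) hold the telo-box core, against 6.22% of 27443 promoters, and 39 hold site II, against 21.7%. Both occur in 20 (38.5%), against 2.2% of all promoters, and neither in 8. In the 250 upstream bases alone the telo-box core is in 17.3% and site II in 63.5%. The median nitrogen log2 fold change was -0.69 for the 20 genes with both motifs, -0.72 for the 19 with site II alone, -0.77 for the 5 with the telo-box core alone and -0.65 for the 8 with neither.

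Under control conditions the level of 37 of the 52 genes differed among accessions, where 75.6% of all genes did. All accessions were counted under the same gene identifiers, and the effect of sequence differences on counts was not tested. Highest and lowest accession means differed by a median of 1.38-fold over 51 genes (all but RPP0A), and 3 genes reached 2-fold. RPS9C differed most, with 11.2 ± 3.37 CPM in Cvi-0, 8.68 ± 3.22 in Col-0, 5.18 ± 0.933 in Tsu-0, 4.05 ± 1.04 in Bur-0 (n = 5) and 1.85 ± 0.490 in Sha (SD, n = 6 otherwise), a 6.07-fold range (adjusted p = 3.88e-20). Neighbours in this order overlapped, except that every Sha library lay below every library of the other accessions. RPS16A, a small subunit protein, ran from 53.4 CPM in Tsu-0 to 118 in Col-0, or 2.20-fold (adjusted p = 6.65e-05). The Col-0 libraries of RPS16A ran from 64.0 to 272 CPM, with an SD of 78.7. The count of 37 was 15 without the 4 far libraries, 52 within code P3ID33 and 6 within P3ID34. RPP0A, RPS9C and RPS3C were called in each of 18 fits.

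RPP0A (AT2G40010), a copy of the stalk base protein P0, had almost no counts in Tsu-0. Whether sequence differences at this gene in Tsu-0 lower its counts was not tested. Over 24 Tsu-0 libraries it had 2 counts of 550366889, or 0.00363 CPM (exact 95% Poisson interval 0.00044 to 0.0131, counting error only), and 22 of these libraries had none. The other accessions had 892 counts in 23 libraries (Bur-0), 1267 in 24 (Col-0), 2471 in 24 (Sha) and 3039 in 24 (Cvi-0), with a count in each library, or 1.85, 2.57, 4.85 and 6.09 CPM. All Tsu-0 libraries lay below all others, and the accession difference under control had an adjusted p of 2.24e-40. Since the fit has almost no reads in Tsu-0, the averaged stress values of RPP0A (-0.40 ± 0.205, -0.64 ± 0.363 and -0.86 ± 0.327 in drought, nitrogen deficiency and combined stress) did not pass the test and are uncertain. The nitrogen and combined values stayed on that side of the threshold under 14 and 16 of 18 alternatives. RPP0B, the major P0 copy, fell in nitrogen deficiency with the other genes.

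Within groups the 52 genes varied together. The correlation of deviations from group means in log2 CPM over all libraries had a median of 0.80 over the 1326 gene pairs, from -0.22 to 0.98, and 76.2% of this variance lay on 1 component. The genes share libraries and scaling, and the summed level went with the library's trend of expression with transcript length at a correlation of -0.66; the 52 transcripts are short, with a median of 1029 bases against 1652 over the genes tested. The weakly expressed copies RPP0A (-0.07), RPS9C (0.53) and RPSAB (0.59) had low median correlations with the others. With the length trend as a covariate 46 genes were lower in drought and 50 in nitrogen deficiency, with medians of -0.18 and -0.65.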

How the data were processed

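Gene counts of all libraries were analysed as the authors deposited them, as whole-number counts in 1 table. Reads were trimmed with Trimmomatic 0.36 and HISAT2 was used, per the submitters' processing notes; the libraries were made with a stranded mRNA kit, per the labels' protocols. How reads were assigned to genes, with or without strand, and on which build, is not given in the sources used here, so overlapping and antisense genes may share reads. Counts were fitted with edgeR 4.0.16 (R 4.3.3; TMM scaling, filterByExpr, quasi-likelihood test) with a term for each group of accession and treatment and for the experiment code, and p-values were adjusted by Benjamini-Hochberg over 20025 genes. DESeq2 1.42.0, limma 3.58.1 and other settings were alternatives, and the edgeR steps were tested on simulated data. Levels (CPM) of the 52 genes were computed here with TMM scaling. Sums of cell markers and the RPP0A levels by accession were instead scaled to library totals. Paralogue ratios used counts plus 0.5. Of 32833 identifiers 32548 matched RefSeq, whose TAIR10.1 annotation gave transcript lengths and promoters. Any of the 52 genes may be named, and from other lists at most 3 genes of lowest p. Values were to be given in every treatment for the 4 lowest and 3 highest log2 fold changes of each stress. The same held for the 6 paralogue pairs with the largest ratio change. For RPL9B, RPS15aA, RPS18A and RPS18B only some treatments are shown, and RPP0A levels are shown by accession. Values of 2 of the 52 genes are not reported here; both stay in the fits and in the counts, medians and sums over the 52. The members and lists were chosen with earlier results of these data known. The closest pair of the 295 within groups differed by a chi-square of 3.07 per gene, so no library was counted as a duplicate. Intervals on counts cover counting error only.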

Additional observations from a re-analysis of the deposited data

Results flagged for a closer look

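In 40 groups of libraries (2 measures in 20 groups) 4 held a library far from its group by Dixon's test, and chance flags about 1 in 20 groups. The summed level of the 52 genes was 1.443% in Bur-0 W+N+ a, the highest of its group. RPS9C stood apart at 3.56 CPM in Bur-0 W+N- e, at 6.573 CPM in Bur-0 W-N- c and at 19.63 CPM in Tsu-0 W+N- d. The response to nitrogen deficiency differed among accessions by edgeR's interaction test for RPSAB (adjusted p = 0.0135), RPL5A (0.03358) and RPS9C (0.01482). The response to combined stress differed for RPL5B (adjusted p = 0.01254).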

How the results depend on the processing

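The counts of genes lower in nitrogen deficiency (50), combined stress (50) and combined stress against drought (50) stayed within 47 to 51 under 18 alternatives. The shares of all genes given above belong to the edgeR fit of all libraries, and none is given for the alternatives. Of 1116 values of named genes and pairs under alternatives, 1075 kept direction and side of the threshold and 22, all in drought, lost their call. Another 14 gained a call, 6 of them in drought. The 5 that turned sign were of RPS9C and passed the test neither way: its drought value (-0.04) was 0.00946 without the 4 far libraries, 0.0230 with the length covariate and -0.11 to 0.0122 leaving out letters, and its combined value (0.06) was -0.0116 to 0.120 leaving out letters, negative without letter a and, at -0.00661, without letter e. Drought (43 genes) gave 10 and 21 in P3ID33 and P3ID34 alone and 31 to 43 leaving out each replicate letter. Departure from additivity (32) gave 19 with library totals, 12 and 16 by code and 20 to 33 leaving out letters. Combined above nitrogen deficiency (8) gave 2 with library totals, 5 with no filter, 1 and 2 by code, 22 with the length covariate and 2 to 11 leaving out letters. Col-0 drought (15) gave 4 with library totals, with no filter and with no code term, 1 in P3ID34, without the 4 far libraries, with the length covariate and under limma voom, 6 in Col-0 alone and 1 to 24 leaving out letters. Bur-0 drought (0) gave 1 without the far libraries, 4 with the length covariate, 2 in Bur-0 alone and 0 to 1. Tsu-0 drought (6) gave 11 with library totals, 0 in each code, 10 without the far libraries, 41 with the length covariate, 2 in Tsu-0 alone and 0 to 8. Nitrogen deficiency gave 31 in Col-0 in P3ID34 (50 to 51 leaving out letters) and 14 in Sha in P3ID33 (19 to 41). Combined stress gave 19 in Col-0 in P3ID34 (48 to 51), and in P3ID33 2 in Cvi-0 (18 to 41), 16 in Sha (25 to 51) and 24 in Tsu-0 (42 to 50). Nitrogen interactions (4) gave 2 with library totals, 0 and 2 by code, 21 with the length covariate and 1 to 5. Combined interactions (2) gave 23 and 0 by code, 25 with the length covariate and 0 to 10. Accession differences (37) gave 6 in P3ID34, 15 without the far libraries and 7 to 41. Changed pairs in drought (14) gave 9 in P3ID33 and 11 to 15. Fits by code hold fewer samples; the cause of the other shifts was not tested. Library totals moved the median of all genes to 0.24 in nitrogen deficiency and 0.15 in combined stress, with the 52 genes 0.73 and 0.67 below it on the log2 scale. Deviations of same-letter libraries within an accession correlated at -0.54 to 0.44 (177 pairs, median 0.06, 74 over 0.1). The experiment code was not removed from these deviations, so they cannot show whether letters pair samples. With a replicate block the counts were 44, 50 and 50 in drought, nitrogen deficiency and combined stress. Depth limits RPS9C and RPP0A, whose lowest library counts were 20 and 0.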
